A study of Mus musculus with 6 samples.

Results

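The genes followed here, Runx2, Sp7, Dlx3, Dlx5, Msx1, Msx2, Twist1, Twist2 and Snai2, encode transcription factors of the osteoblast lineage and make up 9 of the 20071 genes counted. They were picked by symbol, each symbol matched 1 row of the count file, and 7 of the 9 had enough reads to be tested. Mesenchymal stem cells (MSCs), marrow stromal cells able to become osteoblasts, had been taken from femurs of 6-week-old C57BL/6J mice and kept for 7 days in osteogenic medium with ascorbic acid, β-glycerophosphate and dexamethasone. The controls, labelled WT, were Pcif1fl/fl littermates, in which exons 5 to 7 of Pcif1 are flanked by loxP sites but intact. In Prrx1-Cre;Pcif1fl/fl mice, labelled Pcif1 CKO and so called here, a recombinase driven by the Prrx1 promoter, active in limb mesenchyme, removes those exons and with them PCIF1, the enzyme that methylates an adenosine at the first position of capped mRNAs. Both genotypes thus carry the floxed alleles, and blood cells, which such cultures can also hold, do not come from that mesenchyme. Each genotype had 3 libraries of poly(A) RNA. The labels give each genotype 3 numbered samples, while the design text speaks of duplicates, and neither says whether the samples came from separate mice or cultures, so p-values may measure technical spread.

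RUNX2 commits mesenchymal progenitors to the osteoblast lineage, and SP7, also called osterix, acts downstream of it in pre-osteoblasts. The homeodomain proteins DLX3, DLX5, MSX1 and MSX2 act in skeletal patterning and respond to bone morphogenetic proteins. TWIST1 and TWIST2 are basic helix-loop-helix proteins that can bind RUNX2 and hold back its activity, and SNAI2, also called Slug, is a zinc-finger repressor of epithelial genes in mesenchymal cells.

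The libraries held between 20258209 and 28227696 counts. Values are given as CPM, counts divided by the TMM-scaled library size, and fold changes are Pcif1 CKO over Pcif1fl/fl. A gene is said to rise or fall where the adjusted p of edgeR's quasi-likelihood F-test (Benjamini-Hochberg, 13733 genes) was under 0.05, and to be down-regulated or up-regulated where it also changed by at least 1 on the log2 scale, the threshold of the study. Pcif1 itself was at 39.3 to 42.8 CPM in controls and 37.8 to 39.7 CPM in Pcif1 CKO MSCs. Its log2 fold change was -0.085 (SE 0.092, edgeR adjusted p = 0.645). Counts per gene do not show the loss of 3 exons, so the deletion could not be checked in these libraries. Pcif1fl/fl replicate 3 stood apart. Its log2 CPM correlated with the other controls at r = 0.977 and 0.982 across genes, against 0.994 to 0.996 for the other pairs of one genotype, and mitochondrial genes took 3.63% of its counts against 1.40% to 1.57% elsewhere, so the fold changes of the tested factors are also given without it, and those of other named genes where that turned the sign or changed the call.
Stromal markers were present, and so were those of macrophages. The 10 macrophage markers summed to between 27983 and 30210 CPM in controls and between 27640 and 31081 CPM in Pcif1 CKO MSCs. Lyz2 carried most of this sum, but Mrc1 averaged 1761 CPM in controls and 1851 CPM in Pcif1 CKO MSCs. Adgre1 averaged 508 and 599 CPM. Of the 10, 1 rose and none fell, 4 were higher in every Pcif1 CKO library, and without Pcif1fl/fl replicate 3, 4 rose and 1 fell. Of all genes tested 2.88% rose, 4.51% fell and 15% were higher in every Pcif1 CKO library, and without that control 11.1% rose and 10.4% fell. The 11 stromal markers summed to between 9891 and 12544 CPM in controls and between 16382 and 17107 CPM in Pcif1 CKO MSCs, a sum carried by Col1a1, Col1a2 and Vim. Of the 11, 5 rose and 2 fell, and without Pcif1fl/fl replicate 3, 8 rose and 3 fell. Of the 7 adipocyte markers 4 fell. Adipoq, the adiponectin gene, went from 53.8, 42.9 and 44.3 CPM to 1.49, 0.697 and 0.289 CPM, Plin1 and Cfd had between 33 and 115 counts in controls and 0 in every Pcif1 CKO library, and Pparg had a log2 fold change of -1.57 (SE 0.15). The sum of the 7, which Lpl, Cebpa and Fabp4 carried, was between 761 and 801 CPM in controls and between 662 and 863 CPM in Pcif1 CKO MSCs. Cebpa fell too without Pcif1fl/fl replicate 3 (-0.39), and Lpl and Fabp4 then rose (0.37 and 0.40). The cell-type and sex-linked genes named here were chosen after their values were seen. In bulk RNA, fewer cells of a type and less RNA per cell cannot be told apart, and the part of these markers in the values below was not tested. Levels given for MSCs of either genotype are those of whole cultures. Xist was at 232 to 443 CPM in controls and at 0.722 to 1.79 CPM in Pcif1 CKO MSCs. The Y-linked gene Ddx3y was at 48.4 to 62.2 CPM in controls and 99.1 to 104 CPM in Pcif1 CKO MSCs, and Eif2s3y at 24.9 to 35.9 CPM and 47.7 to 55.4 CPM. The controls thus held both Xist and Y-linked RNA, and genotype and the sex make-up of the cultures cannot be told apart.

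Among the 9 factors, Sp7, Snai2 and Msx1 fell in Pcif1 CKO MSCs and none rose. Sp7 fell most, to 27.1% of the control level, Snai2 to 43.8% and Msx1 to 54.2%. Dlx5 and Runx2 were also lower in every Pcif1 CKO library without passing the test, Twist1 was higher in every one without passing it, Msx2 overlapped between genotypes, and Dlx3 and Twist2 were close to the limit of detection. For comparison, 4.51% of all genes tested fell and 2.88% rose, and 15.7% were lower and 15% higher in every Pcif1 CKO library, 30.8% in all without overlap, against 6 of the 9 factors. Sp7 and Snai2 were down-regulated, as were 2.5% of genes tested, and no factor was up-regulated, as were 1.03%. Without Pcif1fl/fl replicate 3, Dlx5 fell as well and Twist1 rose, where 10.4% of genes fell and 11.1% rose, and 2.77% were down-regulated and 1.65% up-regulated. Without any 1 Pcif1 CKO library Sp7 alone fell. With DESeq2, which called 5.26% of genes lower and 3.76% higher (2.46% and 1.06% at the fold threshold), Dlx5 fell and Twist1 rose in addition. Sp7, Dlx5 and Snai2 had been picked by the study as lowered genes in these same libraries, so their direction is not independent evidence.

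**Figure D1:**
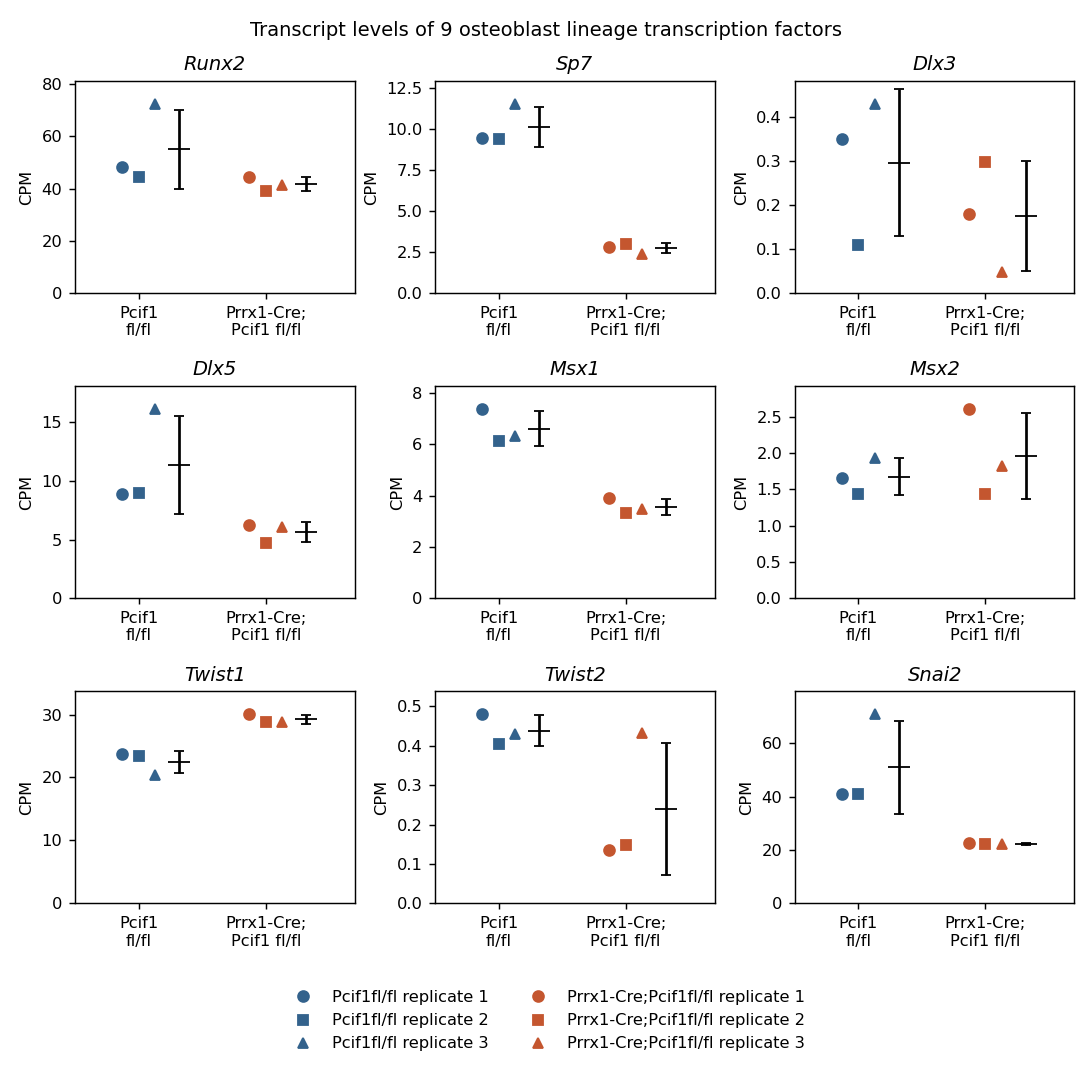
CPM (y axis, from 0) of the 9 factors in each library, with 1 panel per gene; circles, squares and triangles are replicates 1, 2 and 3, and the black bar is the mean with its SD (n = 3). Sp7, Msx1, Snai2, Dlx5 and Runx2 sit lower in every Pcif1 CKO library, Twist1 sits higher, and Pcif1fl/fl replicate 3 is the top control for Runx2, Dlx5 and Snai2.

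PCIF1 acts on the first transcribed base when it is an adenosine, so the annotated start of each factor is shown where the RefSeq promoter table (GRCm38.p6) held it, which it did for 5 of the 9. Each line gives 15 bases before the start, the first base in a capital and 14 bases after it, 5′ to 3′ on the strand of the gene.
Runx2, chr17:44814613-44814642, minus strand: ttttggattgtgtgaAtgcttcattcgcct
Msx1, chr5:37824571-37824600, minus strand: tctcaggggagcggcGgcggacccggagcc
Msx2, chr13:53472766-53472795, minus strand: gccggctccccccccAaaagttggagtctt
Twist1, chr12:33957656-33957685, plus strand: aactctcagacacctCgcgggctcgccagc
Twist2, chr1:91801446-91801475, plus strand: cgggatagagtttccAaaaaagttagaata
An adenosine stood at the annotated start of Runx2, Msx2 and Twist2, a guanosine at that of Msx1 and a cytidine at that of Twist1, and 34.4% of the 32851 promoters in the table began with an adenosine. The table gives 1 start for each of these genes. GENCODE M21 places the outermost start at the same base for Twist1 and Twist2 and at another base for Runx2, Msx1 and Msx2. Starts of single GENCODE transcripts were not compared, so the first base of these 3 rests on the RefSeq start alone. The cells may use other starts, and the methylation of the transcripts was not measured in these libraries.

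The early commitment factor Runx2 (ENSMUSG00000039153, chr17:44495987-44814797, GRCm38, minus strand) stood at 48.4, 44.6 and 72.5 CPM in control replicates 1, 2 and 3, the order used throughout. In Pcif1 CKO replicates 1 to 3 it was at 44.3, 39.0 and 41.5 CPM. The groups did not overlap, but the lowest control lay just above the highest Pcif1 CKO library, and the third control lay far above the other controls. The log2 fold change was -0.41 (SE 0.18, edgeR adjusted p = 0.239), and without Pcif1fl/fl replicate 3 it was -0.16 (SE 0.081, edgeR adjusted p = 0.196). The antisense gene Runx2os1 overlaps 5.87% of the exonic bases of Runx2, and whether strand was used in counting is not given in the sources used here.
Cbfb, which encodes the binding partner of all RUNX proteins, had 105, 104 and 98.2 CPM in the controls. In the Pcif1 CKO libraries it had 111, 116 and 110.5 CPM. Its log2 fold change was 0.13 (SE 0.082, edgeR adjusted p = 0.410), and that of Runx1, the family member of blood cells, was -0.060 (SE 0.12, edgeR adjusted p = 0.813) and 0.081 without Pcif1fl/fl replicate 3.

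Sp7 (ENSMUSG00000060284, chr15:102356606-102367182, minus strand) was at 9.43, 9.37 and 11.5 CPM in the controls. It was at 2.84, 2.99 and 2.41 CPM in the Pcif1 CKO libraries. No Pcif1 CKO library came near a control, with between 50 and 63 counts against between 216 and 322. The log2 fold change of -1.88 (SE 0.17, edgeR adjusted p = 0.000432) was -1.77 without Pcif1fl/fl replicate 3 (edgeR adjusted p = 1.94e-06). It stayed past the threshold in 14 of 14 alternative fits.
Counted against Runx2 within the same library, which removes any scaling between libraries, Sp7 reads came to 0.195, 0.210 and 0.159 per Runx2 read in the controls. In Pcif1 CKO libraries there were 0.0640, 0.0766 and 0.0579 Sp7 reads per Runx2 read. The mean log2 ratio was -2.42 in controls and -3.92 in Pcif1 CKO MSCs (SE of the difference 0.17, exact two-sided permutation p = 0.1, adjusted p = 0.125 over 5 pairs), where 0.1 is the smallest p that 3 libraries against 3 can give. Sp7 was thus lower relative to Runx2 in every Pcif1 CKO library, and without Pcif1fl/fl replicate 3 the difference was -1.61.

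**Figure D2:**
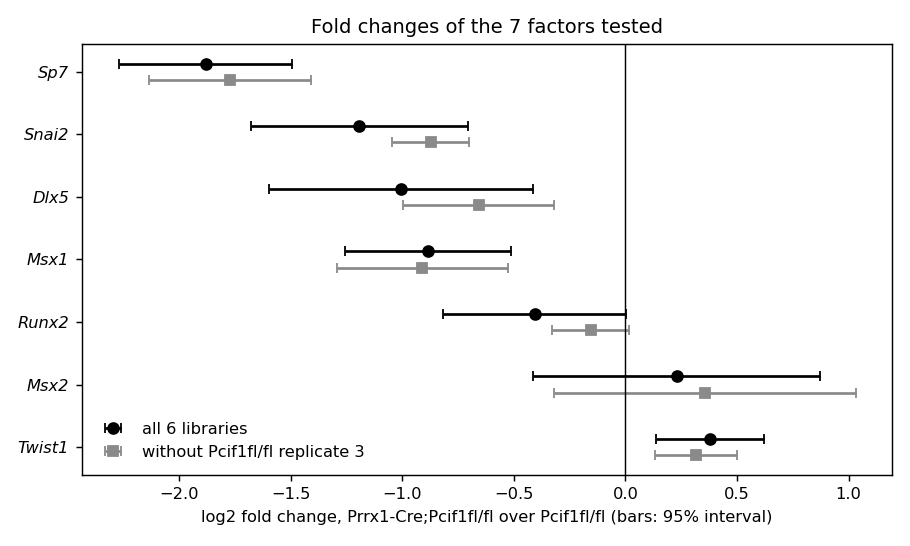
Log2 fold change (x axis) of the 7 factors tested, with bars for the 95% interval from the t distribution of the fit; black circles use all 6 libraries and grey squares leave out Pcif1fl/fl replicate 3. Sp7, Snai2, Dlx5 and Msx1 lie left of 0 in both, Runx2 moves from -0.41 to -0.16, and the bars of Runx2 and Msx2 cross 0.

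Dlx5 (ENSMUSG00000029755, chr6:6877805-6882085, minus strand), a homeobox gene induced by bone morphogenetic proteins, was at 8.91, 9.004 and 16.1 CPM in the controls. In Pcif1 CKO libraries it was at 6.21, 4.68 and 6.06 CPM. The groups did not overlap, and the third control stood far above the other controls. The log2 fold change was -1.01 (SE 0.26), with an adjusted p of 0.0544 from edgeR's quasi-likelihood test. Without Pcif1fl/fl replicate 3 the fold was smaller and its error smaller too, at -0.66 (SE 0.16, edgeR adjusted p = 0.00782), so Dlx5 passed the threshold in the set of 5 libraries and not in the set of 6.
Dlx6, the neighbour of Dlx5, was at 1.31 to 1.79 CPM in controls and 1.25 to 1.59 CPM in Pcif1 CKO MSCs, with a log2 fold change of -0.065 (SE 0.25, edgeR adjusted p = 0.909) and of 0.063 without Pcif1fl/fl replicate 3. Dlx6 was chosen after its values were seen.
Dlx3 (ENSMUSG00000001510, chr11:95120119-95125296, plus strand), the homeobox gene of hair, teeth and bone, had 8, 3 and 12 counts in the controls. It had 4, 6 and 1 counts in Pcif1 CKO libraries and did not pass the expression filter. From 23 counts against 11 the ratio scaled for library size was 0.591, with an exact 95% interval from 0.260 to 1.26 that covers counting error only, so a difference was not detectable at this depth. Dlx5 reads per Dlx3 read differed between genotypes by -0.23 on the log2 scale (SE 0.86, exact permutation p = 0.9, adjusted p = 0.9 over 5 pairs), and without Pcif1fl/fl replicate 2 the difference was 0.19.

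Msx1 (ENSMUSG00000048450, chr5:37820485-37824583, minus strand) and Msx2 (ENSMUSG00000021469, chr13:53466884-53473074, minus strand) encode close relatives, homeodomain repressors that act together in the skull and limb. Msx1 was at 7.38, 6.14 and 6.31 CPM in the controls. It was at 3.92, 3.33 and 3.46 CPM in the Pcif1 CKO libraries. No library overlapped, and the third control lay between the other controls. Msx1 had a log2 fold change of -0.88 (SE 0.16, edgeR adjusted p = 0.0139), and of -0.91 without Pcif1fl/fl replicate 3 (edgeR adjusted p = 0.00183). It therefore fell, though by less than the fold of the study's threshold, and with 1 Pcif1 CKO library fewer edgeR's adjusted p was 0.0516 without replicate 1, 0.0695 without replicate 2 and 0.0798 without replicate 3.
Msx2 was at 1.66, 1.43 and 1.94 CPM in the controls. It was at 2.61, 1.44 and 1.83 CPM in the Pcif1 CKO libraries. The groups overlapped, with the highest and nearly the lowest value in the same genotype. The log2 fold change was 0.23 (SE 0.28, edgeR adjusted p = 0.688), with a 95% interval from -0.41 to 0.87. It was 0.36 without Pcif1fl/fl replicate 3 and -0.029 without Pcif1 CKO replicate 1.
Msx2 reads per Msx1 read were 0.225, 0.234 and 0.307 in the controls. They were 0.667, 0.433 and 0.528 in the Pcif1 CKO libraries. The ratio differed by 1.08 in its mean log2 (SE 0.23, exact permutation p = 0.1, adjusted p = 0.125 over 5 pairs), with every Pcif1 CKO library above every control.

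**Figure D3:**
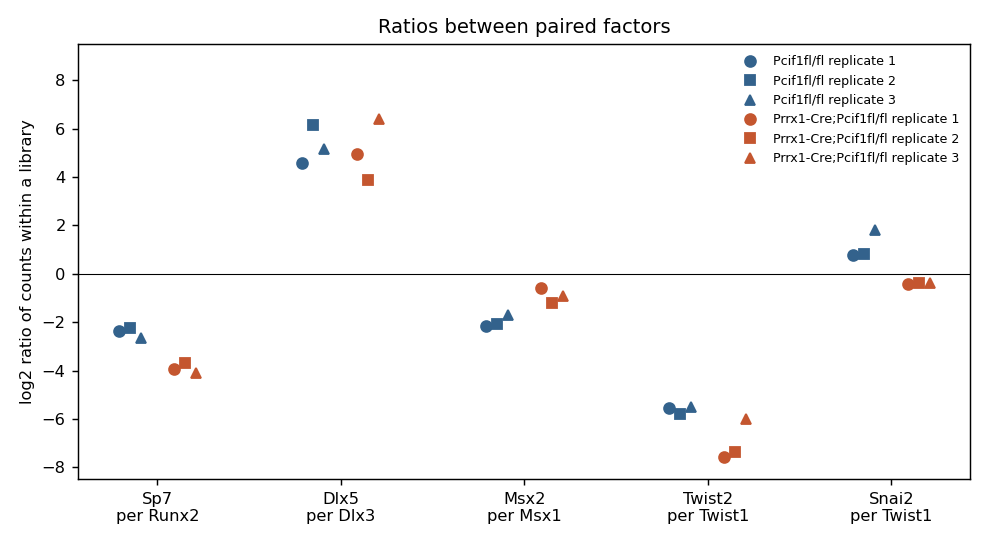
Log2 ratio of the counts of 2 factors within each library (y axis, 0.5 added to both counts) for the 5 pairs compared; circles, squares and triangles are replicates 1, 2 and 3. The genotypes separate for every pair except Dlx5 per Dlx3, with Msx2 per Msx1 higher and the other 3 pairs lower in Pcif1 CKO MSCs.

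Twist1 (ENSMUSG00000035799, chr12:33957671-33959829, plus strand), whose product restrains RUNX2, was at 23.7, 23.4 and 20.5 CPM in the controls. It was at 30.1, 28.8 and 28.9 CPM in the Pcif1 CKO libraries. In CPM, Twist1 was the one factor that was higher in every Pcif1 CKO library, and the gap between groups was wider than the spread within either. The log2 fold change of 0.38 (SE 0.11) had an adjusted p of 0.0711 from edgeR's quasi-likelihood test, and without Pcif1fl/fl replicate 3 it was 0.32 (edgeR adjusted p = 0.0152).
Twist2 (ENSMUSG00000007805, chr1:91801461-91848028, plus strand), the paralog expressed in dermis and bone, had 11, 11 and 12 counts in the controls. It had 3, 3 and 9 counts in the Pcif1 CKO libraries and was not tested. From 34 counts against 15 the scaled ratio was 0.545, with an exact 95% interval from 0.276 to 1.03 for counting error only. The values were lower in counts, but the CPM of the groups overlapped, and the antisense gene Gm29100 overlaps 46.5% of the exonic bases of Twist2, so its counts are uncertain. Twist2 reads per Twist1 read were lower in every Pcif1 CKO library, with a difference of -1.35 on the log2 scale (SE 0.51, exact permutation p = 0.1, adjusted p = 0.125 over 5 pairs).
Among the basic helix-loop-helix partners and inhibitors of the TWIST proteins, Tcf12, which encodes a dimer partner, had a log2 fold change of -0.0048 (SE 0.15, edgeR adjusted p = 0.991), and of 0.20 without Pcif1fl/fl replicate 3 (edgeR adjusted p = 0.0518). Id1, Id2 and Id3, which encode inhibitors that sequester such partners, had log2 fold changes of -0.38, 0.25 and -0.30, with edgeR adjusted p-values of 0.185, 0.377 and 0.580. Id3 was at 197 and 168 CPM in control replicates 1 and 2 but at 80.7 CPM in control replicate 3, below the 118 to 122 CPM of the Pcif1 CKO libraries. Without that control Id3 fell, with a log2 fold change of -0.59 (edgeR adjusted p = 2.47e-05), as did Id1 with one of -0.44 (edgeR adjusted p = 0.0305). Id4 of the same family fell, from 39.6, 33.1 and 37.9 CPM in controls to 14.3, 14.9 and 13.6 CPM, a log2 fold change of -1.37 (SE 0.11, edgeR adjusted p = 0.000304). Id4 was the 1 gene to fall among the 19 relatives and partners tested, a share near the 4.51% of all genes, and none rose, against 2.88% of all genes. The median log2 fold change of the 19 was -0.065 against 0.0017 over all genes, and without Pcif1fl/fl replicate 3 the number that fell was 4, where 10.4% of all genes fell, namely Id4, Id3, Id1 and Dlx4, the last named after its values were seen (-1.27 with all libraries and -1.49 without that control).

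Snai2 (ENSMUSG00000022676, chr16:14705852-14709385, plus strand) was at 40.8, 41.0 and 70.9 CPM in the controls. It was at 22.6, 22.1 and 22.1 CPM in the Pcif1 CKO libraries. The Pcif1 CKO libraries differed among themselves by a coefficient of variation of 1.07%, below the 4.62% that counting alone gives for so many reads, while the controls varied by 34.0%. The log2 fold change was -1.19 (SE 0.21, edgeR adjusted p = 0.0121). Without Pcif1fl/fl replicate 3 it was -0.87 (SE 0.080, edgeR adjusted p = 1.24e-06), so the fall did not rest on the high control, although its size then lay under the fold threshold. With 1 Pcif1 CKO library fewer edgeR's adjusted p was 0.0626 without replicate 1, 0.0688 without replicate 2 and 0.0612 without replicate 3.
Snai1, the relative of Snai2, was at 20.4, 17.4 and 30.7 CPM in the controls and between 18.7 and 19.9 CPM in the Pcif1 CKO libraries, with a log2 fold change of -0.23 (SE 0.20, edgeR adjusted p = 0.570), and of 0.054 without Pcif1fl/fl replicate 3. Snai2 reads per Twist1 read were 1.72, 1.75 and 3.46 in the controls. They were 0.750, 0.770 and 0.767 in the Pcif1 CKO libraries. Snai2 thus had more reads than Twist1 in every control and fewer in every Pcif1 CKO library. The log2 difference was -1.52 (SE 0.33, exact permutation p = 0.1, adjusted p = 0.125 over 5 pairs) and -1.19 without Pcif1fl/fl replicate 3. In CPM, Snai2 was lower and Twist1 higher in every Pcif1 CKO library, so the separation of this ratio follows from those levels and adds no evidence.

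To compare genes, CPM were divided by the kb of all annotated exons of a gene, merged. This reads low where the cells use only part of those exons, so the order is approximate. Runx2 has 8837 such bases in 11 blocks. Snai2 was the highest of the 9 in controls at 25.2 ± 8.55 CPM per kb (SD, n = 3). Below it came Twist1 at 13.8 ± 1.09, Runx2 at 6.24 ± 1.71, Dlx5 at 5.02 ± 1.83, Sp7 at 2.98 ± 0.364 and Msx1 at 2.13 ± 0.218. Msx2 followed at 0.511 ± 0.0768, Twist2 at 0.138 ± 0.0122 and Dlx3 at 0.114 ± 0.0638 CPM per kb. In that order Runx2 and Dlx5 overlapped over the control libraries, as did Twist2 and Dlx3, and the other neighbours did not.
In Pcif1 CKO MSCs Twist1 came first at 18.0 ± 0.445 CPM per kb (SD, n = 3), ahead of Snai2 at 11.0 ± 0.118 and Runx2 at 4.71 ± 0.304. Sp7, at 0.807 ± 0.0887 CPM per kb, came after Msx1 at 1.15 ± 0.0986 and overlapped with Msx2 at 0.598 ± 0.181. By this scale Snai2 lay above 86.9% of the genes tested in controls and above 70.0% in Pcif1 CKO MSCs, and Sp7 moved from above 36.6% to above 17.5%. The level of Sp7 was thus low in either genotype beside those of Snai2, Twist1 and Runx2.

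**Figure D4:**
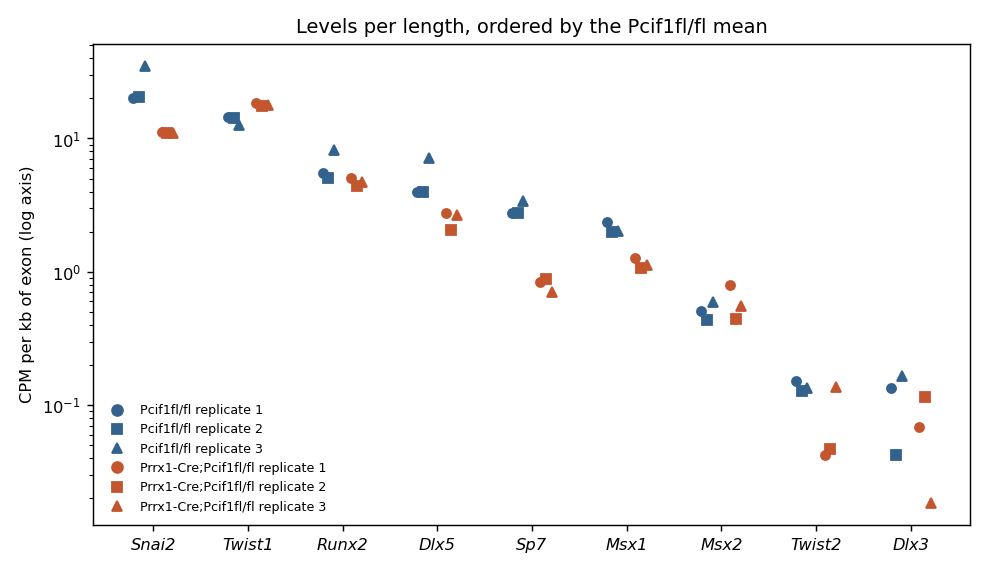
CPM per kb of exon (log y axis) of the 9 factors in each library, ordered by the control mean; blue marks are Pcif1fl/fl and orange marks Pcif1 CKO replicates. Snai2 leads in controls and Twist1 in Pcif1 CKO MSCs, while Twist2 and Dlx3 lie at the bottom in both.

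Pcif1fl/fl replicate 3 was the highest control for 6 of the 9 factors, where it was the highest for 42.7% of all genes tested. It exceeded the mean of the other controls by 0.85 on the log2 scale for Dlx5, by 0.79 for Snai2 and by 0.64 for Runx2, sizes that 3.23%, 4.06% and 7.51% of genes tested reached or passed. Sp7 exceeded that mean by 0.30, while Msx1 and Twist1 were below it by 0.10 and 0.20. Dlx5, Snai2 and Runx2 were thus raised together in this library, and Twist1 was at its lowest there. In the same library 7 of the 11 stromal markers were the highest of the controls, while Col1a1, Col1a2 and Vim were the lowest, and the part of the library's make-up in these levels was not tested.

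Beyond the relatives, wider sets of osteogenic regulators and of osteoblast genes held both falling and rising members. Of 61 co-regulators and other osteogenic factors tested, 8 fell and 4 rose, where 4.51% and 2.88% of all genes did, with a median log2 fold change of -0.085 against 0.0017 over all genes tested. Gli2, which encodes a transcription factor of the hedgehog pathway, had a log2 fold change of -2.43 (SE 0.23) and Zfp423, a zinc-finger factor of stromal and preadipocyte cells, one of -2.30 (SE 0.26). Foxc1, a forkhead factor needed for skull bones, and Sox4 had log2 fold changes of -0.99 and -0.75, whereas Junb, a member of the AP-1 family, rose by 0.75. The adjusted p-values of these 5 lay between 0.000558 and 0.00916 in edgeR's test, and none of the 5 overlapped between genotypes. Without Pcif1fl/fl replicate 3, 12 factors of this list fell and 9 rose, where 10.4% and 11.1% of all genes did. Leaving out any other library gave 4 falling genes, and 2 rose without control replicate 1, 1 without control replicate 2, and none without Pcif1 CKO replicate 1 or 3.

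Of the 27 osteoblast differentiation genes tested, 6 fell and 4 rose, where 4.51% and 2.88% of all genes did, with a median log2 fold change of -0.34 against 0.0017 over all genes tested. Ibsp, which encodes the bone sialoprotein and is a known target of RUNX2 and SP7, fell from 399, 439 and 502 CPM in controls to 205, 192 and 168 CPM, a log2 fold change of -1.25 (SE 0.12, edgeR adjusted p = 0.000585). Alpl, the alkaline phosphatase gene, fell from 91.6, 86.0 and 97.7 CPM to 46.1, 39.3 and 42.3 CPM, and Bmp4, Pth1r and Fgfr3 fell by 1.44, 1.21 and 1.69 on the log2 scale. The members of this list did not move as one, since the collagen genes Col1a1 and Col1a2 were among the 4 that rose, with log2 fold changes of 0.61 and 0.64. Spp1, the osteopontin gene, varied from 9543 to 16544 CPM in controls and from 11786 to 19992 CPM in Pcif1 CKO MSCs and did not pass the test (log2 fold change 0.43, SE 0.25, edgeR adjusted p = 0.375), whereas without Pcif1fl/fl replicate 3 it rose by 0.66 (edgeR adjusted p = 0.0110). Bglap, the osteocalcin gene of late osteoblasts, had between 1 and 5 counts in any library, and Mepe had at most 2. Of other late markers, named after their values were seen, Bglap2 had 14 to 46 counts, Dmp1 17 to 54 and Phex 2 to 22. Their log2 fold changes were -0.49, 0.48 and -0.86, none of which passed edgeR's test (adjusted p = 0.592, 0.539 and 0.397), and that of Dmp1 was 1.04 without Pcif1fl/fl replicate 3 (edgeR adjusted p = 0.0528). Without Pcif1fl/fl replicate 3, 11 genes of this list fell and 9 rose, where 10.4% and 11.1% of all genes did. Leaving out control replicate 2 left 1 rising gene, and leaving out Pcif1 CKO replicate 1, 2 or 3 left 1, 2 or 0.
Of 12 genes tested that TWIST and SNAIL proteins are known to regulate, 2 fell and 2 rose, where 4.51% and 2.88% of all genes did, with a median log2 fold change of 0.23 against 0.0017 over all genes tested. Fgfr2, a fibroblast growth factor receptor gene mutated in craniosynostosis, and Pdgfra had log2 fold changes of -1.12 and -0.42, while Mmp2 and Vim, a matrix protease and an intermediate filament gene of mesenchymal cells, rose by 0.50 and 0.57. The epithelial cadherin gene Cdh1, which SNAIL proteins repress, did not pass the expression filter. Without Pcif1fl/fl replicate 3, 3 genes of this list fell and 7 rose, where 10.4% and 11.1% of all genes did. Leaving out control replicate 2 left 1 rising gene, leaving out Pcif1 CKO replicate 1, 2 or 3 left 0, 1 or 0, and each of these 4 sets left 1 falling gene.

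**Figure D5:**
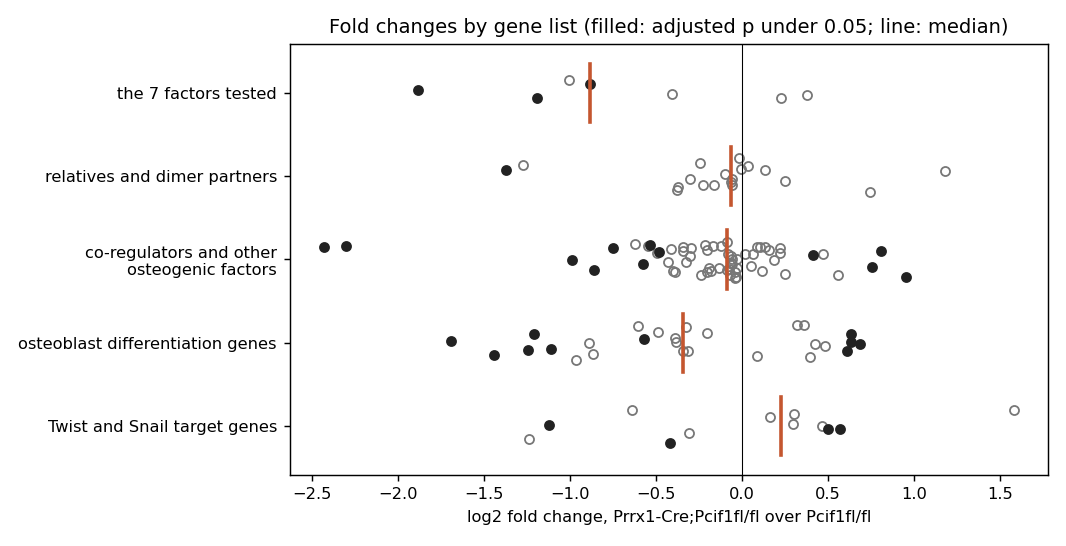
Log2 fold change (x axis) of the genes tested in each list, 1 point per gene, filled where the adjusted p was under 0.05 and open otherwise; the orange line is the median. The 7 factors tested have a median of -0.88, the relatives and partners one of -0.065, and the osteoblast differentiation genes spread from falling to rising genes around -0.34.

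The genes whose log2 CPM followed each factor most closely over the 6 libraries were sought among 12634 genes. For Sp7 they were Angpt2, Ndnf and Chrdl1, with Pearson's r of 0.999, 0.999 and 0.998, and for Snai2 they were Bicc1, Cd200 and Gyg (r from 0.997 to 0.999). Runx2 was followed most closely by Mrtfa, Ogdh and Brip1, Dlx5 by Eya2, Ubtd2 and Nol4l, Msx1 by Gsta4, Frmd5 and Col8a1 and Twist1 by Cst6, Ctsl and Itga5, with r between 0.996 and 0.999. With 2 groups and 6 libraries such values are common: 416 genes had an r above 0.95 with Sp7 and 396 with Snai2. Msx2 had 5 such genes, led by Det1, Ldb2 and Anxa8, Dlx3 had 13, led by Hoxa7, Garem1 and Lyrm1, and Twist2 had 11, led by Pkmyt1, Fanci and Brsk1. The factors whose groups overlapped thus had few close followers. The libraries, their depth and the 2 genotypes are shared by all genes compared, and the correlations are descriptions.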

How the data were processed

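The authors mapped reads to mm10 with HISAT2 and deposited raw read counts for each gene. Which counter, annotation and strand setting they used is not given in the sources used here. The NEBNext Ultra kit was used per the labels. Of 20163 rows, 92 repeat an Ensembl ID with another symbol, so 20071 IDs were used once each. The depth was between 20258209 and 28227696 counts, and exact intervals of count ratios cover counting error only.

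The main test was edgeR 4.0.16 in R 4.3.3 (filterByExpr, TMM, glmQLFit, glmQLFTest), with genotype as the only term. The SE of a log2 fold change is its size over the root of F, and 95% intervals use the t distribution with the test's degrees of freedom. Alternatives were DESeq2 1.42.0, limma-voom (limma 3.58.1), RLE and total-count scaling, no filter, a mean-count filter of 10, blocking on replicate number, splines for GC content and length, and leaving out each library. A level per count of Prrx1 was added after seeing the data. Positions and exon lengths are from GENCODE M21 on GRCm38, the assembly called mm10. Ratios within a library, with 0.5 added to both counts, were tested with exact permutation tests in scipy 1.17.1. On simulated counts for this comparison (13579 genes), edgeR called 94 of 99 genes changed by 2 and 75 of 97 changed by 1 on the log2 scale, with 8 false calls.

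The 9 factors and the gene lists (4 lists of regulators and targets and 8 of cell-type markers) were chosen with earlier results of these data known. Named genes are the 9 factors, up to 5 genes of each list of regulators and targets with the smallest p-values among those past the threshold, 11 partners and targets, Pcif1, and the 3 genes with the highest correlation with each factor. Other genes, among them the cell-type markers, the sex-linked genes and Prrx1, were named after their values were seen. Late osteoblast markers summed to between 402 and 506 CPM in controls and between 172 and 209 CPM in Pcif1 CKO MSCs, mostly from Ibsp. Of the markers tested, 0 of 4 osteoclast and 0 of 7 endothelial genes passed edgeR's test, and 1 of 5 chondrocyte and 1 of 7 smooth muscle genes fell. Of all genes tested 4.51% fell and 2.88% rose. Without Pcif1fl/fl replicate 3, 1 endothelial, 1 chondrocyte and 2 smooth muscle genes fell and 1 chondrocyte gene rose. In that set 10.4% of all genes fell and 11.1% rose. Libraries with the same number did not deviate together (r = 0.064, -0.050 and -0.0016 across genes), so the numbers were not taken as pairs.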

Additional observations from a re-analysis of the deposited data

How the results depend on the processing

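Precision was limited by 3 libraries a genotype and, for Dlx3 and Twist2, by depth. Both were filtered out before testing, so they have values without the filter alone (-0.75 and -0.86, adjusted p = 0.671 and 0.556 in edgeR), and DESeq2 called neither. Sp7 kept its direction and its call under all alternatives (-1.94 to -1.77 without 1 library), and Runx2 stayed short of the threshold under all (-0.54 to -0.16). Dlx5 passed it with DESeq2 (-1.003), total-count scaling (-1.02), no expression filter (-1.01) and the replicate block (-0.96). Twist1 passed with DESeq2 (0.38) and the GC and length correction (0.37), so that 1 factor then rose. Without 1 library the log2 fold change was between -1.15 and -0.66 for Dlx5, -0.95 and -0.80 for Msx1, -0.029 and 0.41 for Msx2, 0.32 and 0.42 for Twist1 and -1.33 and -0.87 for Snai2, and the log2 ratio of Dlx5 per Dlx3 was between -0.89 and 0.37. Per count of Prrx1, a scale chosen after seeing the data, the log2 difference of Msx2 was -0.067. That of Twist1 was 0.12 (SE 0.21) with overlapping groups, and -0.088 without Pcif1fl/fl replicate 3. Runx2, Sp7, Dlx5, Msx1 and Snai2 were lower in every Pcif1 CKO library on this scale as well. Prrx1 itself had a log2 fold change of 0.25 (edgeR adjusted p = 0.303) and, without Pcif1fl/fl replicate 3, rose by 0.40 (edgeR adjusted p = 0.000173), which moves every gene down on that scale, so it bears on no direction. Between 1 and 4 factors fell and between 0 and 1 rose without 1 library.

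Over all genes 343 were down-regulated and 142 up-regulated, 620 and 396 with no fold threshold, and 253 to 385 and 89 to 229 without 1 library. Leaving out control replicate 3 gave the 229, and leaving out Pcif1 CKO replicate 1, 2 or 3 gave 91, 90 or 89 up-regulated genes. Among relatives and dimer partners 1 to 4 fell without 1 library. Among co-regulators and other osteogenic factors 5 fell with limma-voom and with the replicate block, which also left 2 rising, and 4 to 12 fell and 0 to 9 rose without 1 library. Among osteoblast differentiation genes 10 fell with DESeq2, and 5 to 11 fell and 0 to 9 rose without 1 library. Among Twist and Snail target genes 1 fell with the replicate block, 4 rose with DESeq2 and 5 with the GC and length correction, and 1 to 3 fell and 0 to 7 rose without 1 library. The cause was not tested. The replicate block changed no other call among the 9 factors.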
